A study of Homo sapiens with 2 samples.

Results

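CYP1B1 (ENSG00000138061) is a member of the cytochrome P450 superfamily and is described here in A549 cells with and without NAT10. It was 1 gene of the 1415 in the table of RNA values and 1 of its 798 protein-coding genes. The gene was chosen from its values in the 2 libraries and from its rank in them, so its levels and its difference are a description without a test. A549 is an established human line of lung adenocarcinoma. The control group was unmodified A549 cells, and the other group was a NAT10 knockout of the same line, labelled ko1 and made with CRISPR/Cas9, 2 guide RNAs and selection of single-cell clones. Each group had 1 library of total RNA. A difference between these libraries therefore has no replicate check, and it cannot be told apart from a difference between 1 clone and its parent population. The table was limited by the authors to genes that passed a fold change and a p-value, and genes outside it were not analysed here. NAT10 itself was among those, so the table does not show a lower NAT10 transcript in this knockout library. The knockout label was not checked here on that transcript, since no value of it was given. The paper reports lower NAT10 mRNA and protein in its knockout cells by qRT-PCR and Western blot.

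Cytochrome P450 enzymes are haem proteins that oxidise small molecules, including foreign chemicals, steroids and fatty acids. CYP1B1 belongs to the CYP1 family together with CYP1A1 and CYP1A2, and it hydroxylates oestradiol, retinol and arachidonic acid and activates polycyclic aromatic hydrocarbons. Its transcription is a classic target of the aryl hydrocarbon receptor (AhR), a ligand-activated factor that pairs with ARNT and binds DNA at a xenobiotic response element. In the airway epithelium the gene is known for its induction by tobacco smoke. NAT10 writes N4-acetylcytidine (ac4C) on RNA, and the study asked which transcripts change when this enzyme is removed.

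The gene lies on the minus strand of chromosome 2, from 38066973 to 38109902 on GRCh38 in GENCODE release 29. Its main coding transcript (ENST00000610745) has 3 exons and 5250 bases, from 38067507 to 38076181. The coding sequence takes 1629 of those bases (543 codons), split over 2 exons, and is followed by 3215 bases of 3′ UTR. The study describes ac4C sites as repeats of cytosine followed by 2 other bases (CNN), so the coding sequence was searched on the sense strand for runs of at least 4 such units. Acetylation was not measured in these libraries. The study profiled it in separate libraries by antibody capture (acRIP-seq), which were not used here. CYP1B1 is absent from the supplementary gene list that matches in length the paper's count of genes with significantly reduced modification. The heading of that list names expression. A second supplementary list, with a looser limit on the fold change, shows no members in the text used here. CYP1B1 could not be looked for in it. The coding sequence of CYP1B1 held 27 runs of at least 4 units, or 16.6 per kb. The median was 6.73 per kb over 795 listed protein-coding genes. The longest run had 10 units and the next had 9. They lie in exon 2, 132 bases apart, within coding bases 630 to 818 (chr2:38074571-38074759, minus strand). The stretch is shown because it holds the longest runs of the motif class that the study followed, and the capitals mark the repeated cytosines:

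CYP1B1 coding stretch: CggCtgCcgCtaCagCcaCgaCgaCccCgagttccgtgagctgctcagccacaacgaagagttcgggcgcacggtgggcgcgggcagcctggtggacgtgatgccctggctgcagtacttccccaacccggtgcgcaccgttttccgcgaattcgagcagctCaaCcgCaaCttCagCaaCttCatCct

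In both runs the cytosines occupy the third position of the codons. A longest run of 10 or more units was present in 128 of the 795 listed genes (16.1%) and in 13.6% of 19641 protein-coding genes of the annotation. It was present in 16.4% of the listed genes that were lower in the knockout and in 15.6% of those that were higher, which are similar shares. The number of runs was less common, since 13.0% of the listed genes had at least 27. Among 91 listed genes with a coding length within 10% of that of CYP1B1, 6.59% did. The coding sequence of CYP1B1 was 61.3% G and C, against a median of 54.8% in the listed genes. Of the listed genes 24.9% had at least the G and C content of CYP1B1.

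The level of CYP1B1 was lower in the knockout. Its RPKM, the reads scaled to exon length and to library size, was 23.6 for control cells against 5.98 for knockout cells, so the knockout held 25.4% of the control level. These values stood for 861 and 197 reads over 6014 exonic bases. The exact Poisson interval of the RPKM at 95%, which covers counting error only, ran from 22.0 to 25.2 in control and from 5.18 to 6.88 in knockout cells. The gene was chosen from these values, so the gap between them is a description. The log2 ratio of the reads, knockout over control, was -1.98, a 3.94-fold lower level, and its 95% interval by the Clopper-Pearson method ran from -2.21 to -1.75. The difference was -1.81 in log2(RPKM + 1), a scale that understates the change of low genes. A lower value in the knockout library is called a fall below, without a test. In bulk RNA, fewer cells expressing the gene and less RNA per cell cannot be told apart.

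CYP1B1 was among the more abundant transcripts of the table in both libraries. Its control RPKM ranked 14 of 798 protein-coding genes and its knockout RPKM ranked 35. The median protein-coding gene of the table had 0.638 RPKM in control and 0.488 in knockout cells. Of the 13 protein-coding genes above it in the control, 12 were lower and 1 was higher in the knockout. Over all protein-coding genes listed, the lower share was 61.4% and the higher share was 38.6%. A choice by high control level among genes listed for a change favours lower genes, so these shares are not an independent comparison. Of the 13 genes, 4 had a larger fall on the log2(RPKM + 1) scale. The neighbours in the control order were CXCL1, a chemokine, at 27.8 RPKM and PDLIM5, a scaffold protein of the actin cytoskeleton, at 21.8 RPKM.

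By its fall on the log2(RPKM + 1) scale, CYP1B1 ranked 17 of 798, in the top 2.13%. When the pseudocount was 0.1 RPKM it ranked 98, in the top 12.3%. Falls beyond 1 in size on that scale were seen in 12.2% of the protein-coding genes and in 19.4% of all 1415 listed genes, and rises of that size in 4.64% and 13.4%. Of the 16 protein-coding genes with a larger fall, 8 had at most 3 reads in the knockout. When only the 132 protein-coding genes with at least 100 reads over both libraries were compared by the ratio of reads, a limit chosen after the data were seen, CYP1B1 ranked 16, in the top 12.1%. The intervals of 8 of the 15 genes with a larger fall overlapped its own. The other 7 were CXCL5, TGM2, HIST1H1B, CDCP1, CEACAM6, CXCL1 and SVEP1. Among the lower genes of this depth with a smaller fall, 36 had an interval that overlapped that of CYP1B1 and 33 had one wholly above it.

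**Figure D1:**
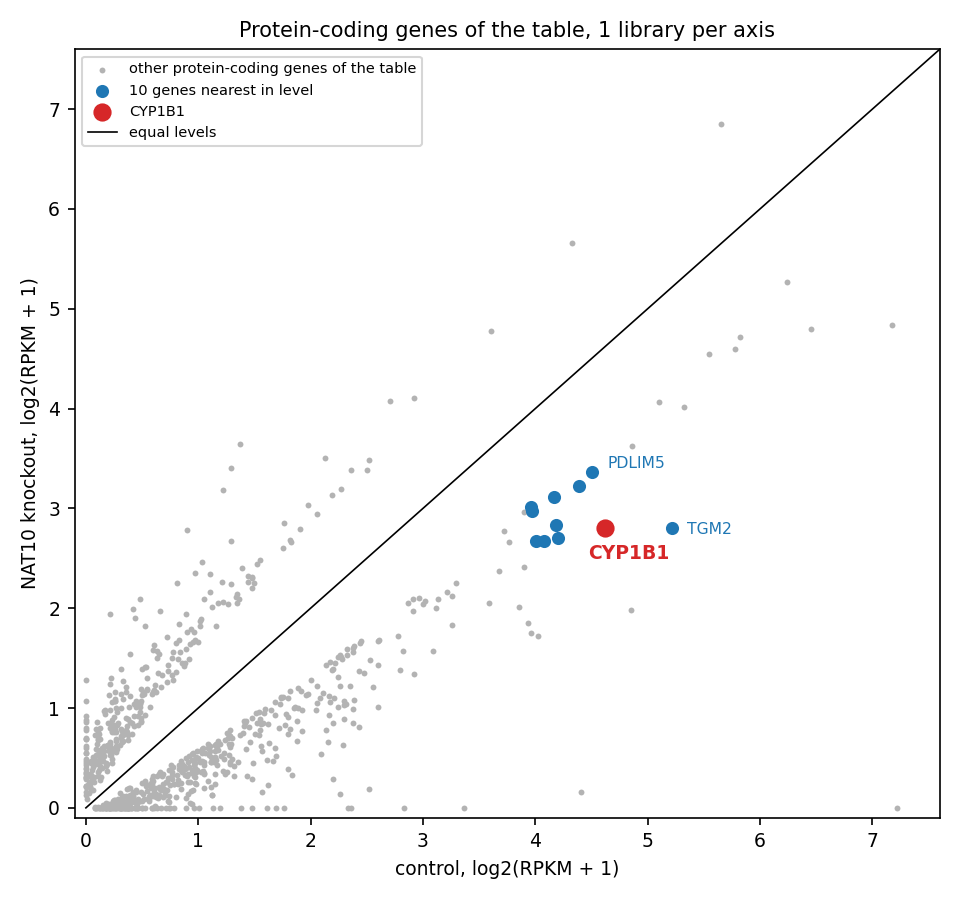
Level of each protein-coding gene of the table in the control (horizontal axis) and in the NAT10 knockout (vertical axis), both as log2(RPKM + 1), 1 library per axis. CYP1B1 (red) lies below the line of equal levels, at 23.6 RPKM in control and 5.98 in knockout cells, among the 10 genes nearest to it in level (blue). The empty band along the line is left by the limit that the authors set on the table.

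The 10 protein-coding genes nearest to CYP1B1 by Euclidean distance over log2(RPKM + 1) in both libraries were SUSD2, TRIB3, PCED1B, PDK4, STEAP1, PDLIM5, TGM2, CD70, CTXN1 and RAB27B. The measure rests on 2 libraries, and the distances ran from 0.42 for SUSD2 to 0.69 for RAB27B. Their RPKM lay between 14.6 and 36.3 in the control and between 5.37 and 9.31 in the knockout. All 10 were lower in the knockout, a direction that the measure itself largely fixes. None of them lies on chromosome 2. The interval of the read ratio overlapped that of CYP1B1 for SUSD2, TRIB3, STEAP1 and CD70. SUSD2, a membrane protein with a sushi domain, had 560 and 160 reads, and TRIB3, a pseudokinase of the stress response, had 359 and 115. TGM2, a transglutaminase that crosslinks proteins, had the closest knockout level to CYP1B1 but a higher control level at 36.3, and its interval from -2.79 to -2.41 lay wholly below that of CYP1B1. The other 5 had intervals wholly above it, PDLIM5 for example with 1467 and 565 reads and an interval from -1.37 to -1.08.

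The antisense gene of the locus was lower as well. CYP1B1-AS1 (ENSG00000232973) is a long noncoding gene on the plus strand, from 38073447 to 38231651, with 35 annotated transcripts. It had 270 reads (5.97 RPKM) in control cells and 55 (1.35 RPKM) in knockout cells. The log2 ratio of reads was -2.14, with an interval from -2.59 to -1.72 that covers the value of CYP1B1. The antisense gene stood at 25.3% of the RPKM of CYP1B1 in the control and at 22.5% in the knockout. The intervals of both transcripts overlapped, and a difference between their falls was not detectable at this depth.

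The exons of both genes overlap. In the annotation 678 bases in 3 stretches are exonic in both, which is 11.3% of the exonic bases of CYP1B1 and 9.10% of those of CYP1B1-AS1. Whether the counting used strand is not given in the sources used here, so reads in these stretches cannot be told apart and both values, the antisense one above all, are uncertain to that extent. RMDN2, another neighbour, shares 96 exonic bases with CYP1B1. The largest stretch has 303 bases (chr2:38074873-38075175). The shortest, the 82 bases at the end of exon 2 of CYP1B1 (coding bases 962 to 1043, chr2:38074346-38074427, minus strand), is shown as an example of sequence that belongs to a coding exon on one strand and to a noncoding exon on the other:

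Shared stretch, CYP1B1 strand: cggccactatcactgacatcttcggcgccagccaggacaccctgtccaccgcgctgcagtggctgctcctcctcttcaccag

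With the reads of both genes added together, the locus had 1131 reads in control and 252 in knockout cells, and the log2 ratio was -2.02 with an interval from -2.22 to -1.82. With every antisense read instead taken from those of CYP1B1, 591 and 142 reads were left and the ratio was -1.91. The value was lower in the knockout under both of these ways to divide the reads. A sum of 2 lower genes is lower by construction, and neither way separates the reads of the shared stretches by strand.

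**Figure D2:**
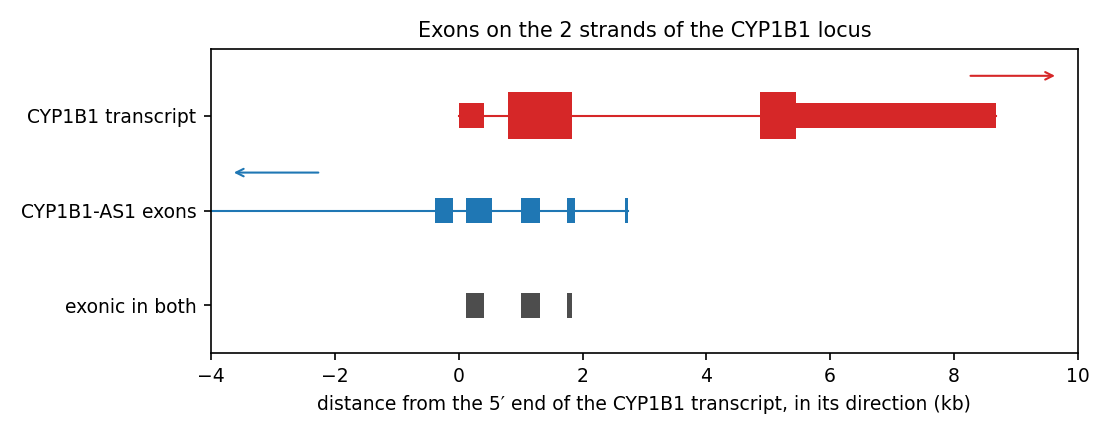
Exons of the main CYP1B1 transcript (red, tall boxes coding), of the CYP1B1-AS1 annotation (blue) and the stretches exonic in both (grey), against the distance in kb from the 5′ end of the CYP1B1 transcript. Arrows give the direction of transcription, and the antisense gene runs on past the left edge. The shared stretches lie in the first and second exon of CYP1B1.

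The AhR binds a core of GCGTG, or CACGC on the other strand. In the RefSeq table of promoters (GRCh38.p14, 250 bases before to 50 after the start of a gene) CYP1B1 had no entry. The window for CYP1B1-AS1 (chr2:38130855-38131154, plus strand) lies around the start that RefSeq gives to this gene. That start is inside the GENCODE span of the gene, which begins at 38073447, and is not its 5′ end. It is also not near the 5′ end of the main CYP1B1 transcript, at 38076181. The window held 1 match, in capitals:

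CYP1B1-AS1 promoter: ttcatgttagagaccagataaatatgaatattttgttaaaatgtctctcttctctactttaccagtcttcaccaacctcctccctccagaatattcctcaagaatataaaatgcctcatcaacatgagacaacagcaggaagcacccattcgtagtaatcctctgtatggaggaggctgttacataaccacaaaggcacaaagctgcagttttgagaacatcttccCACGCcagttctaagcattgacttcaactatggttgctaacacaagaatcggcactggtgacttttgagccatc

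The match starts 24 bases before the RefSeq start of the gene. A core of these 5 letters on either strand was present in 36.5% of 35116 promoter windows of the same length and in 38.8% of the 944 windows of listed genes. The match is a description of the letters and not a site of binding.

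The other genes of the AhR pathway were looked for by name. Of a list of 25 genes, which held the receptor, ARNT, the repressor AHRR, the chaperones of the receptor and known targets such as CYP1A1, TIPARP, NQO1 and ALDH3A1, CYP1B1 was the 1 member in the table. The other 24 were not analysed here, and no value for the pathway as a whole can be given. Over all listed genes 57.0% were lower and 43.0% higher in the knockout, and the median on the log2(RPKM + 1) scale was -0.32.

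Of the 57 cytochrome P450 genes, 3 were in the table, 2 lower and 1 higher, with a median of -0.44 on the log2(RPKM + 1) scale. CYP1B1 had most of their reads. CYP2F1, a P450 of the lung known for its oxidation of naphthalene, had 11 reads in control and 3 in knockout cells (0.604 and 0.183 RPKM), and its interval from -4.20 to 0.20 included no change. CYP7B1, an oxysterol 7-alpha-hydroxylase, had 1 and 7 reads (0.0721 and 0.560 RPKM), a ratio of 7.77 whose interval on the log2 scale reached up to 8.45 and included no change at its lower end. The 12 genes of the P450 redox partners and of haem handling, among them the reductase POR and the cytochrome b5 genes, had 0 members in the table and were not analysed here.

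CYP1B1 oxidises arachidonic acid, and of 27 genes of eicosanoid metabolism 3 were in the table, 2 lower and 1 higher, beside 57.0% lower and 43.0% higher over all listed genes. PTGS2, the inducible cyclooxygenase, had 459 reads in control and 75 in knockout cells (14.3 and 2.60 RPKM), with an interval from -2.83 to -2.11 that overlapped that of CYP1B1. PTGES, the prostaglandin E synthase downstream of it, had 450 and 157 reads, and its interval from -1.64 to -1.10 lay wholly above that of CYP1B1. PTGS1, the constitutive cyclooxygenase, had 0 reads in control and 9 in knockout cells, at least 3.33-fold higher against a floor of 3 reads if the 9 reads are taken as exact. The lower limit of its interval was 1.13 on the log2 scale. Over these 3 genes the median on the log2(RPKM + 1) scale was -1.31.

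CYP1B1 also oxidises retinol to retinal and retinoic acid. Of 28 genes of retinoid metabolism and its receptors 4 were in the table, 3 lower and 1 higher, with a median of -0.40, beside 57.0% lower, 43.0% higher and a median of -0.32 over all listed genes. The lower ones rested on few reads. RBP4, the retinol carrier, had 15 and 2 reads with an interval from -5.93 to -0.65. ALDH1A2, a retinal dehydrogenase, had 9 reads and 1 read with an interval from -8.47 to -0.17. DHRS9, a retinol dehydrogenase, had 12 reads and 0, at least 3.60-fold lower against the floor of 3 reads if the 12 reads are taken as exact, and the interval limit nearest to no change was -1.32 on the log2 scale. The retinoic acid receptor gene RARB was the higher one, with 40 and 80 reads (1.78 and 3.95 RPKM) and an interval from 0.59 to 1.74.

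Among 18 genes of oestrogen synthesis, metabolism and receptors, 2 were in the table. HSD17B8, an estradiol dehydrogenase, had 36 and 14 reads with an interval from -2.22 to -0.29. SULT1A1, a phenol sulfotransferase that also belongs to the conjugation list, had 15 and 64 reads, with an interval from 1.42 to 3.16. It has near-identical paralogs beside it, so its value is uncertain. Of the 54 genes of conjugation and other detoxification, 3 were in the table. Besides SULT1A1 they were UGT1A9, a glucuronosyltransferase, with 35 reads in control and 0 in knockout cells, and ABCB1, a drug efflux pump, with 13 reads and 0. UGT1A9 shares exons with the other UGT1A genes and is uncertain for that reason. Against the floor of 3 reads UGT1A9 was at least 10.5-fold lower and ABCB1 at least 3.90-fold lower. These bounds take the control reads as exact, and the interval limit nearest to no change was -3.02 and -1.46 on the log2 scale.

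Over the 7 lists, which hold 195 different genes, 14 were in the table, 10 lower and 4 higher, and the median on the log2(RPKM + 1) scale was -0.53. Over all listed genes 57.0% were lower, 43.0% were higher and the median was -0.32. Of the 19641 protein-coding genes of the annotation 795 (4.05%) were in the table. The lists were not tested.

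**Figure D3:**
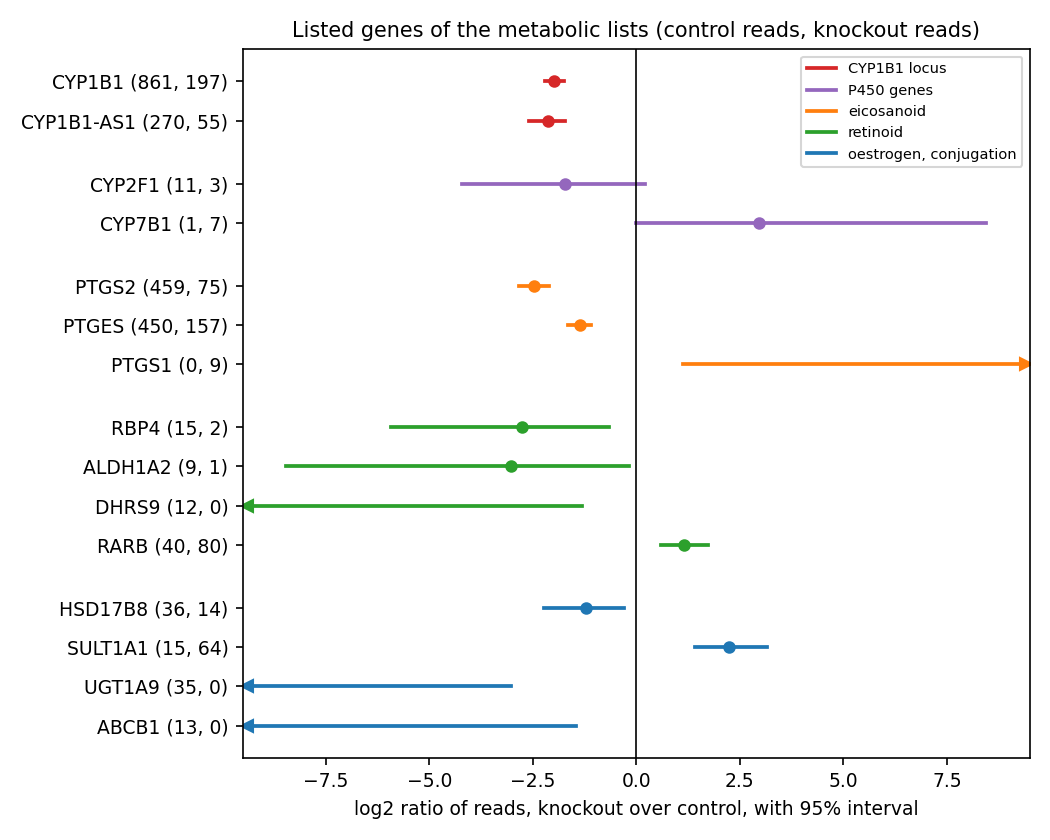
Log2 ratio of reads, knockout over control, for the locus and for the listed members of the metabolic lists, with the 95% Clopper-Pearson interval as a bar and an arrow where 1 library had 0 reads. reads of control and knockout cells stand in parentheses. CYP1B1, CYP1B1-AS1, PTGS2 and PTGES have narrow bars below 0, while those of CYP2F1 and CYP7B1 include 0.

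Most listed genes of chromosome 2 were higher in the knockout, and CYP1B1 was not. On chromosome 2, 114 genes were in the table, 27 lower and 87 higher, so 23.7% were lower, whereas 776 of the 1294 listed genes on the other chromosomes were lower. Among the 63 protein-coding genes of chromosome 2, CYP1B1 had the highest control level and ranked 2 by its fall on the log2(RPKM + 1) scale, but 7 with a pseudocount of 0.1 RPKM and 1 with 5 RPKM. CPS1, the mitochondrial enzyme that makes carbamoyl phosphate, was the one above it with a pseudocount of 1 RPKM, from 4.73 to 0.140 RPKM. Only 4 listed genes of the chromosome had a control RPKM of at least 10, and the other 3 were higher in the knockout, among them INHBB, the inhibin beta B subunit, with 19.1 and 49.6 RPKM.

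Within 5 Mb of CYP1B1 the table held 6 of 136 annotated genes and 2 of 41 protein-coding ones. Apart from CYP1B1 and its antisense gene, 1 was lower and 3 were higher. The nearest was HSPE1P13, a processed pseudogene 988 kb away, with 8 reads in control and 0 in knockout cells, which is uncertain as a copy of HSPE1. SLC8A1, the sodium and calcium exchanger 1.99 Mb away, was higher with 23 and 84 reads and an interval from 1.34 to 2.75, and its antisense gene had 3 and 11 reads. SNORA67, a small nucleolar RNA with near-identical copies, had 2 and 10 reads and is uncertain. Within 10 Mb the table held 12 genes besides the pair, 2 lower and 10 higher. Without the pair, higher genes made up 75.0% within 5 Mb and 83.3% within 10 Mb. These shares are near the 76.3% over all listed genes of chromosome 2.

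**Figure D4:**
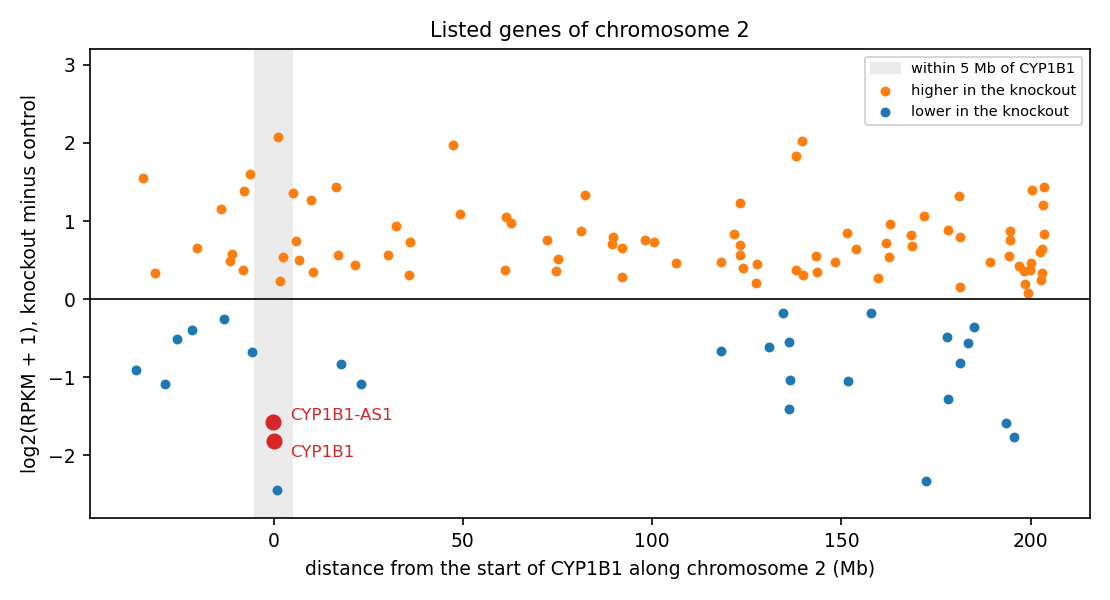
Difference in log2(RPKM + 1), knockout minus control, of each listed gene of chromosome 2 against its distance in Mb from the start of CYP1B1, with the 5 Mb on each side shaded. Of 114 genes 87 are higher (orange) and 27 are lower (blue), and CYP1B1 at -1.81 and CYP1B1-AS1 at -1.57 (red) are among the largest falls.

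The epithelial nature of the cells could be followed only in part. Of 15 markers of lung epithelium and A549 cells 2 were in the table, CDH1 and MUC5B, with a summed RPKM of 19.9 in control and 6.90 in knockout cells. Of 8 fibroblast markers COL1A1 and THY1 were listed, with a sum of 1.34 and 0.562 RPKM. The table held 4.05% of the annotated protein-coding genes. All 4 listed markers, of both kinds, were lower in the knockout, beside 61.4% of the protein-coding genes of the table. None of these 4 was at 0 in either library, and the 4 endothelial and 6 immune markers had no member in the table. Their part in the lower level of CYP1B1 was not tested.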

How the data were processed

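The 2 libraries, from control A549 cells and from the NAT10 knockout clone, were prepared from total RNA with the SMARTer kit that the labels name. The authors deposited RPKM for each gene and library in 1 table, together with their own fold changes, p-values and adjusted p-values, which were not used. The submitters' processing notes name the build hg38. The aligner, counter, annotation and strand setting are not given in the sources used here. The smallest log2 ratio of RPKM in the table had a size of 0.99.

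Samples were grouped by title, with 1 library per group, and no test of the conditions was possible. The value columns are headed WT-input and NAT10-KO-input. WT-input was matched to the sample titled A549,Control because it was the only control. The plan was written for normalized values and kept. RPKM times the exon length in GENCODE release 29 gave whole reads, within 0.01 of a read, in both libraries for 1342 of 1408 genes (95.3%). The effective library sizes were 6077933 for the control and 5474964 for the knockout, so 1 read of CYP1B1 was worth 0.0274 and 0.0304 RPKM. Intervals at 95% came from these reads (SciPy 1.17.1) and cover counting error only, since reads carry no molecular identifiers. A pseudocount of 1 RPKM was used on the log2 scale, and folds against 0 reads used a floor of 3 reads per library. The scripts were tested on simulated data.

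CYP1B1 and the gene lists were chosen with earlier results of these data known. Named genes were CYP1B1, the members of the 7 metabolic lists in the table, the protein-coding genes within 5 Mb and the 10 nearest in level. Other names were added after their values were seen. Alternatives were other pseudocounts, a minimum level, other sets for the rank, another centring and another window.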

Additional observations from a re-analysis of the deposited data

How the results depend on the processing

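The direction of CYP1B1 was lower in every setting tried, but most of these settings could not have changed it. A pseudocount added to both libraries cannot change the sign, and the ratio of reads is the RPKM ratio without a pseudocount. Those settings bear on the size of the difference only. The log2 ratio of CYP1B1 was -1.81 with a pseudocount of 1 RPKM, -1.96 with 0.1 and -1.98 from the reads alone. It moved by more than its counting error to -1.38 with a pseudocount of 5 RPKM and to -1.50 when the median of the listed genes, -0.32, was set to 0. That median is of a table limited to changed genes, so this centring is not a check of the library scaling. The rank by fall depended on the set and scale more than on counting error, whose interval ran from the top 1.88% to the top 3.01%. It was the top 6.18% with a mean RPKM of at least 1, 3.67% over all gene types, 12.3% with a pseudocount of 0.1 RPKM and 1.25% with 5 RPKM. With at least 100 reads and no pseudocount, a setting added after seeing the data as were the 2 on antisense reads, it was 12.1%. A small pseudocount raises genes with few reads above CYP1B1. The number of P450 genes beyond 1 in size was 1, and 3 with a pseudocount of 0.1 RPKM. Within 5 Mb it was 4, but 6 with a pseudocount of 0.1 RPKM, 2 with 5 RPKM and 8 within 10 Mb. No paired analysis was possible because each group had 1 library. Variation among libraries of a group is therefore unknown.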

Other observations

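Besides the coding P450 genes, 2 pseudogenes of the superfamily were in the table. Both were higher in the knockout, as were 43.0% of all listed genes. CYP2F2P, a pseudogene on chromosome 19, had 7 reads in control and 18 in knockout cells, with an interval of the log2 ratio from 0.19 to 3.02. CYP2D7, a near-identical copy of CYP2D6, had 0 reads and 5 reads, with a lower limit of 0.02. Reads of such copies can be assigned to either gene, so both values are uncertain. They were named after their values had been seen.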
